A study of Mus musculus with 9 samples.

Results

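A list of 45 nuclear genes of succinate dehydrogenase (complex II), the cytochrome bc1 complex (complex III), cytochrome c oxidase (complex IV) and ATP synthase (complex V) was followed in mouse brown adipose tissue. The list is not complete, and some late subunits were read apart from it. All 45 are called subunits below, the inhibitor Atpif1 among them. They were matched by exact gene symbol, a rule that uses no measured value. All 45 were among the 24356 symbols of the expression tables, and all 45 were above 0 in every library, as were 14675 symbols in all, which formed the set tested. The list held 4 genes of complex II, 9 of complex III, 16 of complex IV and 16 of complex V.

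The respiratory chain passes electrons from food-derived carriers to oxygen and pumps protons out of the mitochondrial matrix. Complex II feeds electrons from succinate, complex III hands them to cytochrome c, complex IV gives them to oxygen, and complex V lets protons flow back to make ATP. Brown adipocytes are packed with mitochondria and burn fuel for heat, because uncoupling protein 1 lets the protons return without ATP synthesis. Several subunits of complexes IV and V come as paralogs, some used in nearly every tissue and others concentrated in contractile tissue, lung or testis.

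RNA was measured in the brown adipose tissue of growth hormone releasing hormone knockout (GHRH-KO) mice and their littermate controls (WT), all of mixed C57BL6 and 129SV background and from 1 colony on standard chow. Ages are not given in the sources used here. Each library came from a separate mouse: 2 GHRH-KO females, 2 GHRH-KO males, 3 WT females and 2 WT males, 9 in all. Values are FPKM, fragments per kilobase of transcript scaled to the mapped fragments of the library, so levels of different genes are compared per length.

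The targeted gene did not follow the labels. Each of the 5 WT-labelled mice had Ghrh at 0. The KO-labelled mice had it at 0.846 and 0.233 FPKM (females) and at 0.799 and 0.470 FPKM (males). The tables give 1 value per gene and do not show which part of the transcript was read. Every direction below is therefore one between libraries labelled KO and libraries labelled WT.

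No pair of libraries held identical values. The FPKM of a library summed to between 380558 and 443569, and relative depth, read from the size of the steps between low values, spanned 0.916 to 1.14 times that of 1 WT-labelled female. Rank correlations between libraries lay at 0.958 to 0.991, except those of KO-labelled male 1, at 0.924 to 0.934. Its 10 tested lymphocyte markers summed to 301.6 FPKM, against 2.90 to 7.51 FPKM in the other libraries. The tissue label was checked with Ucp1, the uncoupling protein of brown fat, which was high in every library at 2992 and 2460.3 FPKM in the KO-labelled females, 2164 and 2399 FPKM in the KO-labelled males, 1649.6, 2086 and 2325 FPKM in the WT-labelled females, and 1357 and 1681 FPKM in the WT-labelled males. None of the 12 brown adipocyte markers passed the test for genotype averaged over the sexes.

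The 45 subunits together made up 8.19% to 10.7% of the FPKM of a library. Their levels spread widely. Atp5b, the catalytic beta subunit of ATP synthase, was the highest at 2845 ± 211 FPKM (SD, n = 9 libraries), followed by Cox6a1 at 2372, Cox4i1 at 2333, Cox8b at 2098 and Cox5b at 1860. The other end held 5 genes with a mean under 100 FPKM: Cox4i2 at 3.65, Atpif1 at 7.15, Cox6b2 at 13.5, Atp5g1 at 31.3 and Cox6a2 at 59.6. The median subunit stood at 544 FPKM in complex II, 849.8 in complex III, 964 in complex IV and 759 in complex V. The low genes were a minor paralog of a high one in 4 of the 5 cases, the exception being the inhibitor Atpif1.

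Averaged over the sexes, 2 of the 45 subunits were higher in the libraries labelled KO and none was lower, by limma on log2 FPKM with Benjamini-Hochberg adjustment over all genes tested. They were Cox6a2, the cytochrome oxidase subunit 6A of heart and skeletal muscle, and Atp5g1, 1 of the 3 genes for the c subunit of ATP synthase. Among all genes tested, 1.43% were called higher and 2.17% lower, and 2 of 45 (4.44%) is read against those shares. The split of all calls moved with the scaling: 210 genes were higher and 319 lower as deposited, 130 and 92 after median centring, 228 and 216 after quantile normalization, and 246 and 816 after rescaling every library to the same sum (TPM). Leaving Mir6236, a microRNA locus, out of that sum gave 230 and 486. The same 2 subunits were the members whose KO-labelled libraries all lay above the WT-labelled ones, a pattern that 3.03% of all genes showed. No subunit lay wholly below, against 6.04% of all genes.

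**Figure D1:**
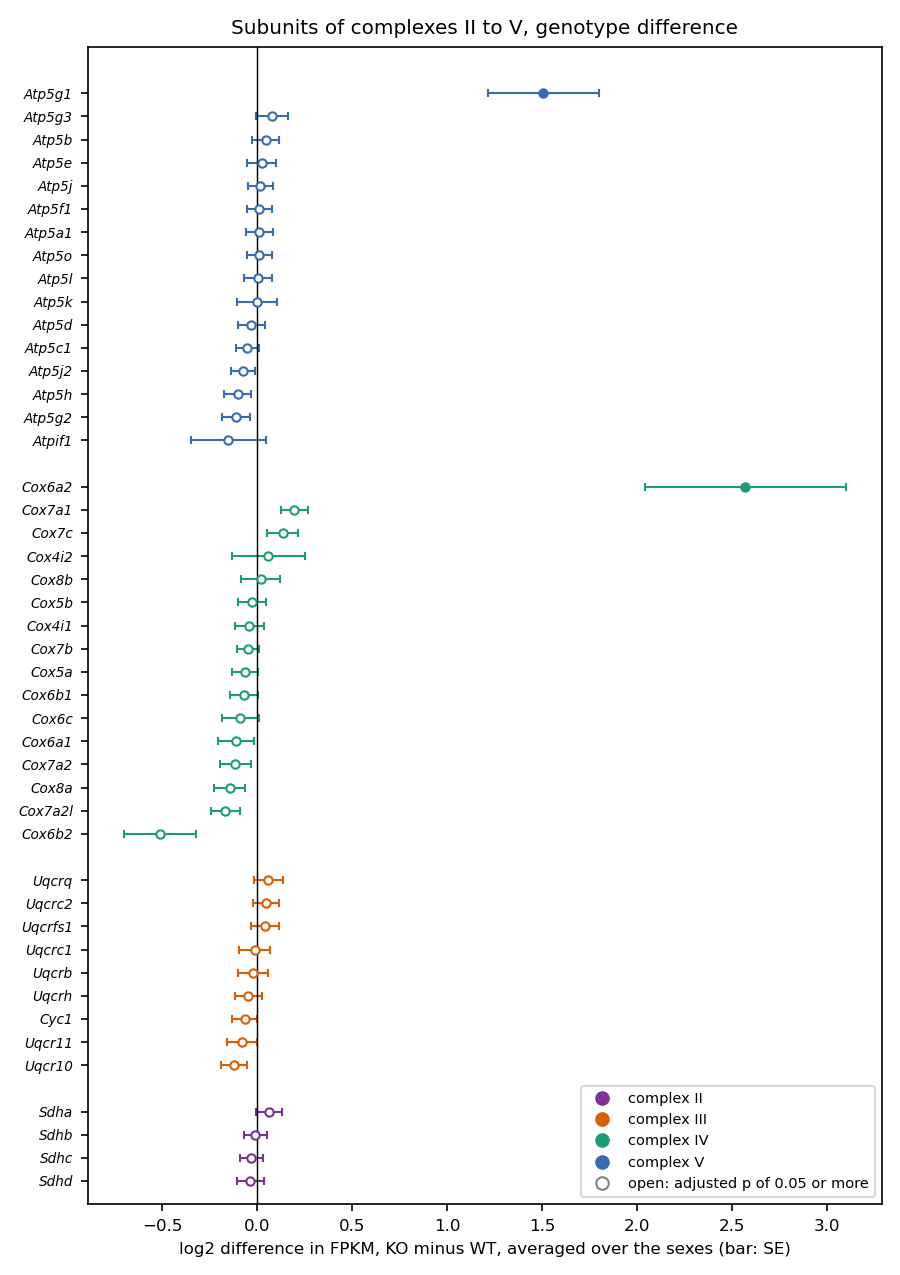
Log2 difference in FPKM, KO-labelled minus WT-labelled and averaged over the sexes, for each of the 45 subunits, ordered by size within its complex, with bars of 1 SE. Filled points, Cox6a2 at 2.57 and Atp5g1 at 1.51, have an adjusted p under 0.05; the others are open and lie close to 0 apart from Cox6b2 at -0.51.

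The other subunits differed little. Of the 45, 18 had a positive and 27 a negative difference, with a median of -0.02 on the log2 scale, beside 37.5% positive and a median of -0.07 over all genes. That balance depended on the scaling: 30 were positive after median centring, 11 after quantile normalization, 5 as TPM and 12 as TPM without Mir6236. At an unadjusted p under 0.05, Cox6a2, Atp5g1 and Cox7a1 were on the higher side (5.99% of all genes were) and Cox6b2 on the lower (14.2% were).

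In complex II, the 4 genes of succinate dehydrogenase had a median difference of -0.02, and none passed the test. Sdha, the flavoprotein that oxidizes succinate, was at 666 and 673 FPKM in the KO-labelled females, 542 and 589 FPKM in the KO-labelled males, 548, 571 and 589 FPKM in the WT-labelled females, and 649 and 573 FPKM in the WT-labelled males. Its highest values were those of the KO-labelled females and its lowest that of a KO-labelled male, and the genotypes overlapped. Its difference averaged 0.06 (SE 0.07, limma adjusted p = 0.694), and was -0.02 after quantile normalization. Sdhd, a membrane anchor of the complex, was at 500.03 and 525 FPKM in the KO-labelled females, 434 and 465 FPKM in the KO-labelled males, 467, 502 and 497 FPKM in the WT-labelled females, and 531 and 461 FPKM in the WT-labelled males, with overlap throughout and a difference of -0.03 (adjusted p = 0.856). Sdhb, the iron-sulfur subunit, and Sdhc, the other anchor, stood at 769 and 405 FPKM on average and had differences no larger in size than that of Sdha.

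Complex III gave 3 positive and 6 negative differences with a median of -0.02, and no call. Uqcr10, a small accessory subunit, had the lowest p of the complex at 705 and 733 FPKM in the KO-labelled females, 616 and 599 FPKM in the KO-labelled males, 747, 723 and 754 FPKM in the WT-labelled females, and 758 and 642 FPKM in the WT-labelled males. Both KO-labelled males lay under every WT-labelled library, while the KO-labelled females lay among them. The difference was -0.12 (adjusted p = 0.399). Cyc1, the cytochrome c1 that passes electrons to cytochrome c, was at 899 and 899 FPKM in the KO-labelled females, 714 and 780.3 FPKM in the KO-labelled males, 876, 881 and 874 FPKM in the WT-labelled females, and 881 and 796 FPKM in the WT-labelled males. Females labelled KO stood highest and males labelled KO lowest, which averaged to -0.07 (adjusted p = 0.664). The core proteins Uqcrc1 and Uqcrc2 and the Rieske iron-sulfur protein Uqcrfs1 differed by -0.01, 0.05 and 0.04.

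Complex IV held the largest difference of the list. Cox6a2 was at 106 and 64.6 FPKM in the KO-labelled females, 152 and 101 FPKM in the KO-labelled males, 41.9, 21.3 and 14.7 FPKM in the WT-labelled females, and 28.9 and 5.26 FPKM in the WT-labelled males. Each KO-labelled library exceeded each WT-labelled one, the nearest being KO-labelled female 2 and WT-labelled female 1. Means were 106 ± 35.7 (SD, n = 4) and 22.4 ± 14.0 FPKM (SD, n = 5), a ratio of 4.73. The log2 difference was 2.57 (SE 0.53, limma adjusted p = 0.0456). Cox6a2 lies on chromosome 7 at chr7:128205435-128206387 of GRCm38 (GENCODE M21), where Itgad overlaps it on the opposite strand, and shares no 50-base stretch with another annotated gene.

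The call on Cox6a2 did not rest on a wide margin. Over 21 alternative settings its difference stayed between 1.96 and 3.19, and its adjusted p ran from 0.00935 to 0.171, under 0.05 in 9 of them. It was lost without either KO-labelled female, KO-labelled male 1, any WT-labelled female or WT-labelled male 2, among them KO-labelled female 1 (2.39, adjusted p = 0.171) and WT-labelled male 2 (1.96, adjusted p = 0.0855). Within a sex it did not pass: 1.81 in females (adjusted p = 0.355) and 3.33 in males (adjusted p = 0.101), with an interaction of 1.51 (adjusted p = 0.738).

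Skeletal muscle markers moved with it. All 18 markers of a list that includes Ckm, the muscle creatine kinase, had a positive difference, with a median of 2.26, and Acta1, Myh1 and Mylpf passed the test. Summed over the list they came to 7256 and 3223 FPKM in the KO-labelled females, 14082 and 7294 FPKM in the KO-labelled males, 2724, 1819 and 1396 FPKM in the WT-labelled females, and 2518 and 536 FPKM in the WT-labelled males. No marker was at 0 in any library. Cox6a2 per 100 FPKM of that sum was 1.08 to 2.00 in the KO-labelled and 0.980 to 1.54 in the WT-labelled libraries, so relative to muscle markers the genotypes overlapped. That ratio differed by 0.31 on the log2 scale (exact permutation test, two-sided, p = 0.206, 4 against 5 libraries).

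Atp5g1 of complex V had its 5 highest values in the 5 libraries with the highest muscle sums. It made up 0.577 to 0.814 per 100 FPKM of the sum in the KO-labelled and 0.691 to 2.48 in the WT-labelled libraries, a log2 difference of -0.67 (exact permutation test, two-sided, p = 0.0317). The muscle sum thus differed by more than Atp5g1 did, and the ratio was negative where the difference of the gene itself was positive. Its size rested on WT-labelled male 2, at 2.48 where the other WT-labelled libraries ran from 0.691 to 0.935, and without it the ratio differed by -0.35 (exact permutation test, two-sided, p = 0.0571). Over the 9 ways of leaving out 1 library that p ran from 0.0286 to 0.0714. Both ratios were formed after the data were seen, and their p-values were not adjusted. At low sums Atp5g1 did not follow muscle, with 13.3 FPKM at a sum of 536 (WT-labelled male 2) and 12.0 FPKM at 1396 (WT-labelled female 3). A gene that keeps a level at low sums gives a lower ratio where the sum is high. The negative sign of its ratio was therefore not read further. Bulk tissue cannot tell fewer or more cells of a type from less or more RNA per cell, and the part of muscle in either difference was not tested further.

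**Figure D2:**
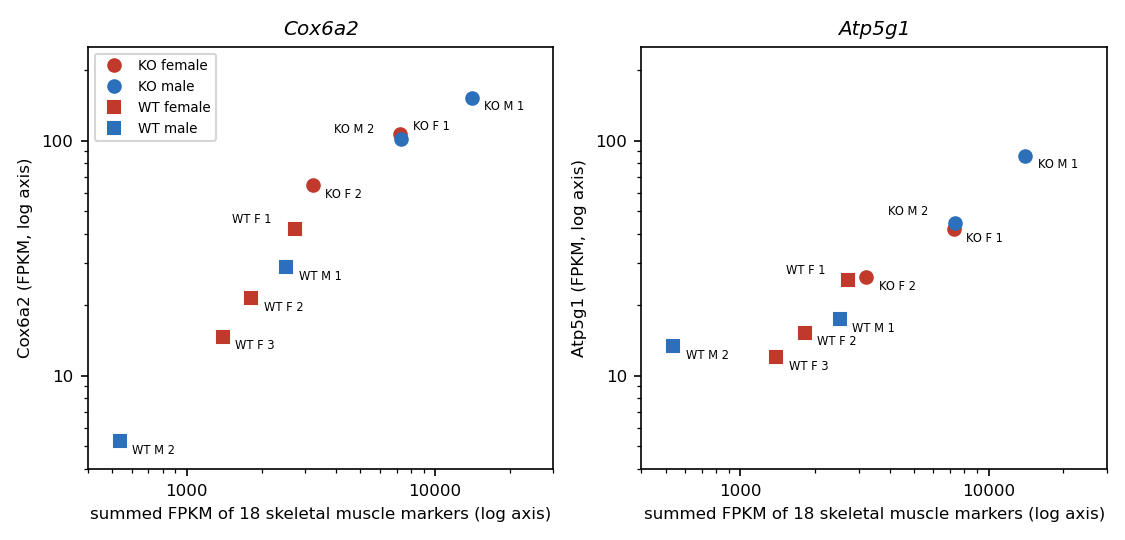
FPKM of Cox6a2 (left) and Atp5g1 (right) against the summed FPKM of 18 skeletal muscle markers in the 9 libraries, all axes logarithmic, circles for KO-labelled and squares for WT-labelled mice, red for females and blue for males. Cox6a2 ran from 5.26 FPKM where the muscle sum was 536 to 152 FPKM where it was 14082, and the 4 KO-labelled libraries hold the 4 highest muscle sums.

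The partner paralog of Cox6a2, Cox6a1, is the form used in most tissues and was at 2415 and 2678 FPKM in the KO-labelled females, 1845 and 2177 FPKM in the KO-labelled males, 2519, 2272 and 2596 FPKM in the WT-labelled females, and 2601 and 2245 FPKM in the WT-labelled males. The genotypes overlapped (-0.11, adjusted p = 0.599). Even where Cox6a2 was highest it stood at 8.22% of Cox6a1, and where lowest at 0.234%. The ratio was 4.41% and 2.41% in KO-labelled females and 8.22% and 4.64% in KO-labelled males, against 1.66%, 0.940% and 0.565% in WT-labelled females and 1.11% and 0.234% in WT-labelled males. Such a ratio within a library does not depend on how libraries are scaled. Its log2 difference was 2.59 (exact permutation test, two-sided, p = 0.0159, the smallest p that 4 against 5 libraries allow; 0.0556 after Benjamini-Hochberg adjustment over the 7 paralog pairs compared).

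Cox7a1 is the heart and muscle form of subunit 7A and is abundant in brown fat. It was at 1285 and 1355 FPKM in the KO-labelled females, 1097 and 1064 FPKM in the KO-labelled males, 1129, 1024 and 1148 FPKM in the WT-labelled females, and 952 and 1025 FPKM in the WT-labelled males. Within each sex the KO-labelled mice were above the WT-labelled ones, but both KO-labelled males fell below 2 of the WT-labelled females. The difference was 0.20 (SE 0.07, adjusted p = 0.166). Cox7a2, the form of most tissues, was at 348 and 415 FPKM in the KO-labelled females, 290.1 and 339.7 FPKM in the KO-labelled males, 384, 344 and 359.9 FPKM in the WT-labelled females, and 378 and 392.21 FPKM in the WT-labelled males, with overlap and -0.11 (adjusted p = 0.519).

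The balance of subunit 7A lay with the muscle form in every library. Cox7a1 came to 369.7% and 326% of Cox7a2 in KO-labelled females, 378% and 313% in KO-labelled males, 294%, 298% and 319% in WT-labelled females and 252% and 261% in WT-labelled males. Only 1 WT-labelled female overlapped the KO-labelled range. The log2 difference was 0.29 (exact permutation test, two-sided, p = 0.0317, adjusted over the pairs 0.0741).

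Subunit 8 was compared in the same way. Cox8b, the muscle form that brown fat shares, was at 2319.7 and 2589.6 FPKM in the KO-labelled females, 1899 and 1619 FPKM in the KO-labelled males, 2314, 1939 and 2423 FPKM in the WT-labelled females, and 1788 and 1989.8 FPKM in the WT-labelled males. Females exceeded males in most libraries and the genotypes overlapped (0.02, adjusted p = 0.951), with a sign that turned to -0.03 after quantile normalization. Cox8a, the general form, was at 1737 and 1779 FPKM in the KO-labelled females, 1381 and 1496 FPKM in the KO-labelled males, 1944, 1666 and 1874 FPKM in the WT-labelled females, and 1780.3 and 1608 FPKM in the WT-labelled males, and differed by -0.14 (adjusted p = 0.377). The ratio of Cox8b to Cox8a ran from 108% to 146% in KO-labelled and from 100.4% to 129% in WT-labelled libraries (log2 difference 0.15, exact permutation test, two-sided, p = 0.206, adjusted 0.241).

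The remaining pairs of complex IV set a scarce paralog against an abundant one. Cox4i2, the form known from lung, was at 3.68 and 3.65 FPKM in the KO-labelled females, 3.57 and 3.23 FPKM in the KO-labelled males, 4.81, 5.47 and 3.03 FPKM in the WT-labelled females, and 2.31 and 3.09 FPKM in the WT-labelled males. Its values crossed over between sexes, and the mean difference was 0.06 (adjusted p = 0.919) and -0.01 as TPM. Cox4i1, a subunit at the regulatory face of the enzyme, was at 2527 and 2575 FPKM in the KO-labelled females, 2005 and 2063 FPKM in the KO-labelled males, 2511, 2239 and 2565 FPKM in the WT-labelled females, and 2323 and 2187 FPKM in the WT-labelled males. KO-labelled males were lowest, and the difference was -0.04 (adjusted p = 0.845), or 0.02 after median centring. Cox4i2 stood at 0.0993% to 0.244% of Cox4i1 with a log2 difference of 0.04 in the ratio (exact permutation test, two-sided, p = 0.889).

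Cox6b2, known from testis, was at 14.8 and 15.4 FPKM in the KO-labelled females, 6.64 and 6.83 FPKM in the KO-labelled males, 22.8, 12.1 and 18.4 FPKM in the WT-labelled females, and 10.2 and 14.1 FPKM in the WT-labelled males. Both KO-labelled males lay below every other library, whereas KO-labelled females lay inside the WT-labelled range. Its difference was -0.51 (SE 0.19, adjusted p = 0.183). Cox6b1, the general form, was at 1716 and 1889.6 FPKM in the KO-labelled females, 1471 and 1590.5 FPKM in the KO-labelled males, 1893, 1703 and 1835 FPKM in the WT-labelled females, and 1677 and 1666 FPKM in the WT-labelled males, with a difference of -0.07 (adjusted p = 0.703). The ratio of Cox6b2 to Cox6b1 was 0.430% to 0.861% in KO-labelled and 0.611% to 1.20% in WT-labelled libraries (-0.48, exact permutation test, two-sided, p = 0.159, adjusted 0.222).

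**Figure D3:**
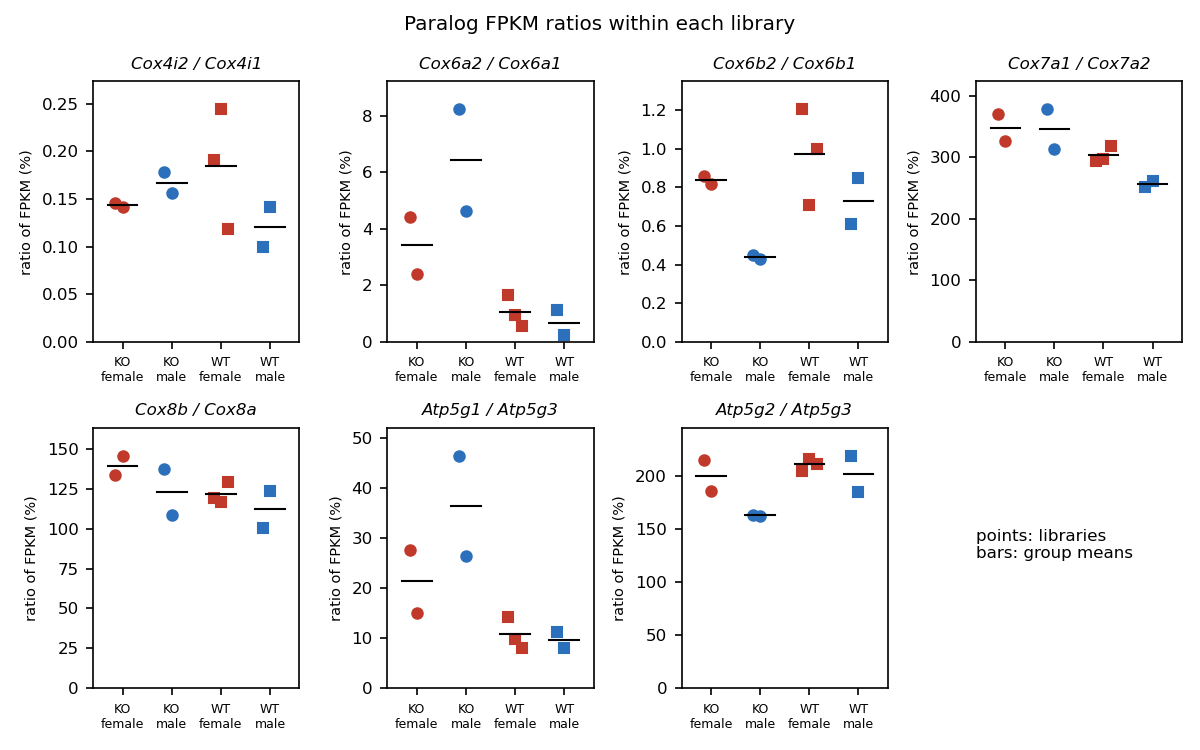
FPKM of 1 paralog as a percent of its partner within each library, for the 7 pairs, with points for libraries (circles KO-labelled, squares WT-labelled, red females, blue males) and bars for group means. The KO-labelled points stand clear of all WT-labelled points for Cox6a2 to Cox6a1 (2.41% to 8.22% against 0.234% to 1.66%) and Atp5g1 to Atp5g3 (15.02% to 46.4% against 7.96% to 14.2%), and overlap them in the other pairs.

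The c subunit of ATP synthase forms the rotating ring of complex V. Its 3 genes, Atp5g1, Atp5g2 and Atp5g3, encode the same mature protein behind different import sequences, so their RNAs add up to 1 product. Because only Atp5g1 was called, sequences before the RefSeq starts of the 3 genes are shown. They run 5′ to 3′ on the gene's strand, the minus strand in each case (RefSeq, GRCm38.p6). Known motifs of mitochondrial and muscle genes are in capitals. For Atp5g1 and Atp5g3 the run ends before the first annotated transcript start. For Atp5g2 the 30 bases around its match are given. These lie before the RefSeq start but inside the annotated gene (chr15:102662864-102672352, GENCODE M21).
Atp5g1, chr11:96075671-96075881: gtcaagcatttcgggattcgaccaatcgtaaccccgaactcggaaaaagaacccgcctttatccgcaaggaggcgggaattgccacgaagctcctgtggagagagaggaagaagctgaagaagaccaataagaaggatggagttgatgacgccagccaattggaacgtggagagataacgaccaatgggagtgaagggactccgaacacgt
Atp5g2, chr15:102671070-102671099: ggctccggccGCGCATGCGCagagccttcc
Atp5g3, chr2:73911327-73911576: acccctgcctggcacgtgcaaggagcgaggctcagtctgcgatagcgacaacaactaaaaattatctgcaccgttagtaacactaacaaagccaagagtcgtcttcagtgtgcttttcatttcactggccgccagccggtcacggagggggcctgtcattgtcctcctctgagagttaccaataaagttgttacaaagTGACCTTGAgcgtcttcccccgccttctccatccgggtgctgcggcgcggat
The capitals mark the palindromic core site of NRF1 (GCGCA followed by its reverse complement) in Atp5g2, 42 bases before the RefSeq start, and the ERR element (TCAAGGTCA, here as its reverse complement TGACCTTGA) in Atp5g3, 52 bases before it. No letters of Atp5g1 matched these, the ETS core CCGGAAGT or the muscle E-box CAGCTG.

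Both strands were searched in the 250 bases before each RefSeq start, and no motif contains another. Of 32851 promoters, 0.782% held the NRF1 core, 0.387% the ERR element, 2.88% the ETS core and 13% the E-box. Of the 34 subunit genes with an entry, 3 held the NRF1 core (Atp5g2, Atp5k and Cox6a1), 1 the ERR element (Atp5g3), 3 the ETS core and 3 the E-box (Atp5b, Atpif1 and Cox8b). These are matches of letters only.

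Atp5g1, on chromosome 11 at chr11:96068852-96075670 of GRCm38 (GENCODE M21), was at 41.9 and 26.2 FPKM in the KO-labelled females, 86.0 and 44.6 FPKM in the KO-labelled males, 25.5, 15.2 and 12.0 FPKM in the WT-labelled females, and 17.4 and 13.3 FPKM in the WT-labelled males. Each KO-labelled library exceeded each WT-labelled one, by the narrowest margin between KO-labelled female 2 and WT-labelled female 1. Means were 49.7 ± 25.5 (SD, n = 4) and 16.7 ± 5.33 FPKM (SD, n = 5), a ratio of 2.98. The log2 difference was 1.51 (SE 0.29, limma adjusted p = 0.0413). It was 0.99 in females (adjusted p = 0.358) and 2.02 in males (adjusted p = 0.0906), with an interaction of 1.03 (adjusted p = 0.718).

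This call too was narrow. Over 21 alternative settings the difference lay between 1.27 and 1.74 and the adjusted p between 0.0256 and 0.159, under 0.05 in 11. It was lost on leaving out any of the same 7 libraries as for Cox6a2. Without KO-labelled male 1, the library with the highest value and the highest muscle sum, it was 1.27 (adjusted p = 0.0590), and without KO-labelled female 1 it was 1.34 (adjusted p = 0.159). Of the 50-base stretches of Atp5g1 transcripts, 10.2% occur in transcripts of other genes.

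Atp5g3 was at 151 and 175 FPKM in the KO-labelled females, 185 and 168 FPKM in the KO-labelled males, 179, 153 and 148 FPKM in the WT-labelled females, and 156 and 167 FPKM in the WT-labelled males, with overlap and a difference of 0.08 (adjusted p = 0.694). Atp5g2, the most abundant of the 3, was at 326 and 325 FPKM in the KO-labelled females, 303 and 274 FPKM in the KO-labelled males, 368, 332 and 314 FPKM in the WT-labelled females, and 342 and 309.8 FPKM in the WT-labelled males. It overlapped as well (-0.11, adjusted p = 0.456), and 38.3% of its 50-base stretches occur in other genes. The ratio of Atp5g1 to Atp5g3 was 27.7% and 15.02% in KO-labelled females, 46.4% and 26.5% in KO-labelled males, 14.2%, 9.95% and 8.07% in WT-labelled females and 11.1% and 7.96% in WT-labelled males. Its groups did not overlap (log2 difference 1.41, exact permutation test, two-sided, p = 0.0159, adjusted 0.0556). The ratio of Atp5g2 to Atp5g3 was 163% to 215% in KO-labelled and 185% to 219% in WT-labelled libraries (-0.20, exact permutation test, two-sided, p = 0.111, adjusted 0.194).

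Set against the summed RNA for the c subunit, Atp5g1 stayed a minor source. It gave 8.06% and 4.99% of the sum in KO-labelled females, 14.97% and 9.15% in KO-labelled males, 4.45%, 3.04% and 2.52% in WT-labelled females and 3.37% and 2.71% in WT-labelled males. The KO-labelled shares were higher in each case, while Atp5g2 gave most of the RNA throughout. None of the 7 paralog ratios passed 0.05 after adjustment over the pairs, and when libraries were permuted within each sex the smallest p was 0.0333 (exact permutation test, two-sided), for the Cox6a2, Atp5g1 and Cox7a1 pairs, or 0.0778 adjusted.

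Atpif1, the inhibitor that blocks ATP synthase from running backward, was at 6.24 and 6.27 FPKM in the KO-labelled females, 9.34 and 5.27 FPKM in the KO-labelled males, 9.60, 6.22 and 6.67 FPKM in the WT-labelled females, and 7.01 and 7.71 FPKM in the WT-labelled males. The groups overlapped, with a difference of -0.15 (SE 0.20, adjusted p = 0.761), and it became 0.05 without KO-labelled male 2. The other 12 subunits of complex V lay between -0.10 for Atp5h and 0.04 for Atp5b, and the 16 of the complex split into 9 positive and 7 negative differences with a median of 0.01. As TPM, 2 of the 16 were positive and the median was -0.06.

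The sexes were then taken apart, as the design has both. In females, 33 of the 45 differences were positive with a median of 0.07, while 39.8% of all genes were positive with a median of -0.07. All 4 subunits of complex II, 8 of 9 of complex III, 10 of 16 of complex IV and 11 of 16 of complex V were positive. None was called by limma (0.0204% of all genes were), and 5 had an unadjusted p under 0.05, all higher, where 4.95% of all genes were higher and 7.73% lower at that level. These were Sdha, Cox6a2, Cox7a1, Cox7c and Atp5g1. Both KO-labelled females lay above all 3 WT-labelled females for 12 subunits (26.7%, against 13.8% of all genes), among them Sdha, Sdhb, Uqcrc2, Uqcrfs1, Cyc1, Atp5a1 and Atp5b, and below them only for Cox7a2l (26.6% of all genes). The excess of positive differences depended on scaling, with 41 of 45 after median centring, 27 as TPM and 21 after quantile normalization, where the median was -0.01.

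In males, 6 of the 45 differences were positive with a median of -0.11, beside 39.9% positive and a median of -0.08 over all genes. None of complexes II and III, 3 of 16 in complex IV and 3 of 16 in complex V were positive. None was called (0.0136% of all genes were). The count over all genes moved from 2 to 236 as TPM, but only to 8 as TPM without Mir6236. That locus held 6.36% and 10.3% of the FPKM in the KO-labelled males, against 2.30% to 4.48% in the other libraries. Among the subunits, 4 had an unadjusted p under 0.05, Cox6a2 and Atp5g1 higher (4.86% of all genes) and Cox6b2 and Cox7a2 lower (11.7%). The KO-labelled males lay below both WT-labelled males for 22 subunits (48.9%, against 28.7% of all genes) and above them for 5 (11.1%, against 10.8%): Cox4i2, Cox6a2, Cox7a1, Atp5g1 and Atp5g3.

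The median over all genes also moved with single male libraries. Without KO-labelled male 1, the library with lymphocyte markers, 8 of 45 subunits were positive and their median was -0.10, but the median of all genes went to -0.22. Without WT-labelled male 1, 15 of 45 were positive with a median of -0.06. The counts stayed between 5 and 15 of 45 over all alternatives.

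The genotype by sex interaction, males minus females, was negative for 39 of 45 subunits with a median of -0.17, beside a median of -0.01 over all genes. No subunit and no other gene passed the adjusted test. Without KO-labelled male 2, 721 genes passed (656 positive, 65 negative), none of them a subunit. Sdha alone had an unadjusted p under 0.05, at -0.35 (adjusted p = 0.691), where 5.03% of all genes had one on that side. Median centring moved the median of all genes by more than 0.1, to -0.12 here and to 0.04 for the genotype difference in females. The number of negative interactions among the 45 stayed between 33 and 41 over the alternatives. The marker lists moved too. The interaction was negative for 10 of 12 brown adipocyte markers (median -0.45) and for 34 of 36 nuclear subunits of complex I (median -0.18), and positive for all 18 skeletal muscle markers (median 1.71) and all 10 lymphocyte markers (median 4.05). The KO-labelled males were unlike each other in 2 of these lists. Lymphocyte markers summed to 301.6 FPKM in male 1 and 3.33 FPKM in male 2. The mean log2 level of the brown adipocyte markers, centred over the 9 libraries, was -0.40 in male 1 and 0.06 in male 2. The part of the marker lists in the values of the 45 was not tested.

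**Figure D4:**
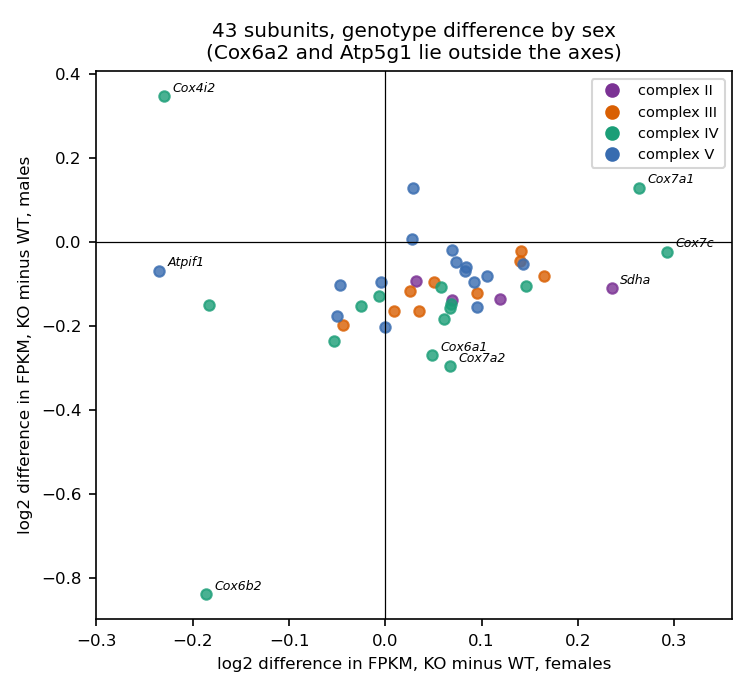
Log2 difference in FPKM, KO-labelled minus WT-labelled, in females (horizontal axis) and in males (vertical axis) for 43 of the subunits, coloured by complex; Cox6a2 and Atp5g1 lie beyond the axes. Most points sit right of 0 and below 0, positive in females and negative in males, with Cox6b2 lowest and Cox7a1 positive in both.

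Sex itself was compared with the genotypes averaged. Males had the lower value in 41 of 45 subunits, with a median of -0.17 against 0.007 for all genes, and in 39 to 42 of 45 over the alternatives. None was called by limma (0.0136% of all genes were), and 20 had an unadjusted p under 0.05, all lower in males, where 7.09% of all genes were lower and 3.36% higher. That count was 4 after median centring, 7 without KO-labelled female 2 and 29 as TPM. Every male library lay below every female one for 7 subunits (15.6%, against 1.85% of all genes): Sdhb, Sdhc, Cox5b, Cox6b1, Cox7b, Atp5b and Atp5j2. None lay wholly above (0.906% of all genes). The male minus female difference was lower in KO-labelled than in WT-labelled mice for 39 of the 45. Most subunits had the lower mean in males among WT-labelled mice too. Some did not, among them Sdha, with WT-labelled means of 611 FPKM in males and 569 FPKM in females. The nuclear subunits of complex I were lower in males in 36 of 36 cases (median -0.17, 21 at an unadjusted p under 0.05), and the brown adipocyte markers in 9 of 12 (median -0.15). Over all genes the 2 calls for sex became 803 without KO-labelled male 2, and the subunits called stayed at 0.

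The level of each whole complex was also read by library. Centred over the 9 libraries on the log2 scale, the median subunit of complex II was 0.10 and 0.14 in KO-labelled females and -0.18 and -0.05 in KO-labelled males, with WT-labelled libraries from -0.08 to 0.07. Complex IV ran from 0.18 in a KO-labelled female to -0.21 in KO-labelled male 1. These spans are small beside the differences of Cox6a2 and Atp5g1, and the genotypes overlapped in each complex.

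**Figure D5:**
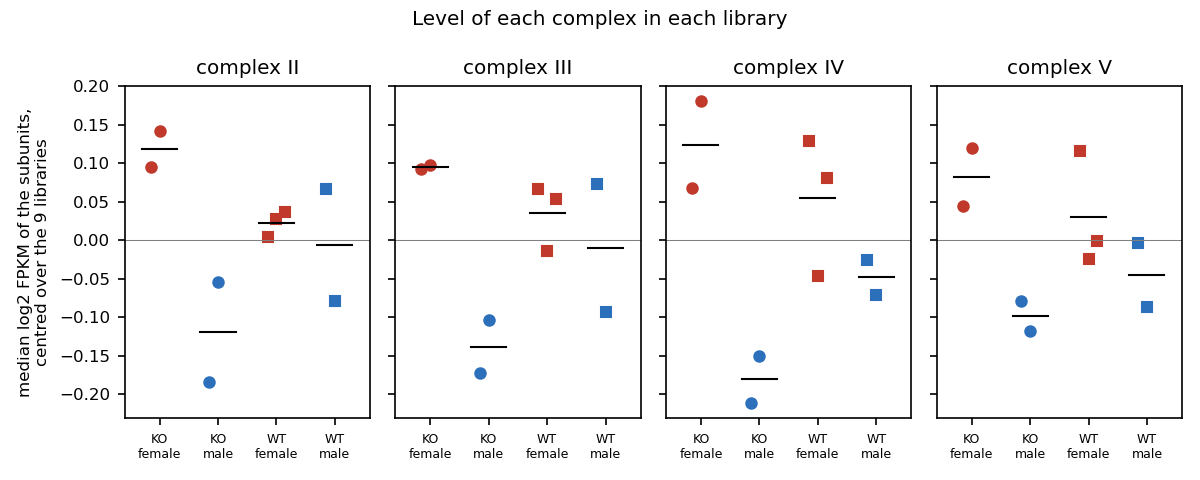
Median over the subunits of each complex of log2 FPKM, centred over the 9 libraries for each gene, with points for libraries (circles KO-labelled, squares WT-labelled, red females, blue males) and bars for group means. KO-labelled males hold the lowest group mean and KO-labelled females the highest in all 4 complexes, with values between -0.21 and 0.18.

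The linear model of the study, genotype, sex and their interaction with a call at an unadjusted p under 0.01, has females as the reference, so its genotype term is the difference in females. It called 1 of 45 subunits, Cox7a1 at 0.26, where 1.38% of all genes were called higher and 2.04% lower. With sexes weighted equally it called Cox7a1 and Atp5g1, where 7.54% of all genes were called. Its call on Cox7a1 was lost when any KO-labelled library, or WT-labelled female 1 or 2, was left out.

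Related gene lists were read by the same limma fit. None of the 36 nuclear subunits of complex I, which takes electrons from NADH, was called. They had 10 positive differences and a median of -0.07, with the lowest p for Ndufb3 at -0.23 (adjusted p = 0.113). None of the 6 other carriers and late subunits tested, cytochrome c among them, was called, and Cox7b2 and Cox8c were listed at 0 in all 9 libraries. Among 12 regulators of mitochondrial biogenesis none was called, with values of 0.49 for Ppargc1a (adjusted p = 0.442), a coactivator of mitochondrial genes, and 0.33 for Nrf1 (adjusted p = 0.482). Of the 12 regulators, 10 had a positive difference, with a median of 0.11, beside 37.5% positive and a median of -0.07 over all genes. The 6 subunits of complexes III to V encoded by mitochondrial DNA were not found in the expression tables under the symbols searched. They were therefore not analysed here.

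Of 33 assembly factors of complexes II to V, 3 were called, 1 higher and 2 lower. A positive difference was seen in 21 of the 33, with a median of 0.03, beside 37.5% of all genes. Among all genes tested, 1.43% were called higher and 2.17% lower. The KO-labelled libraries lay wholly above the WT-labelled ones for 3.03% of all genes and wholly below for 6.04%. Cox14, which helps make the first core subunit of cytochrome oxidase, was at 90.6 and 93.1 FPKM in the KO-labelled females, 72.6 and 72.8 FPKM in the KO-labelled males, 118, 112 and 110.1 FPKM in the WT-labelled females, and 94.1 and 97.8 FPKM in the WT-labelled males, lower in every KO-labelled library of each sex and overall (-0.35, SE 0.05, limma adjusted p = 0.0290). Uqcc1, needed to build complex III, was at 49.0 and 46.1 FPKM in the KO-labelled females, 43.2 and 43.8 FPKM in the KO-labelled males, 61.8, 57.2 and 57.5 FPKM in the WT-labelled females, and 54.9 and 54.8 FPKM in the WT-labelled males, also without overlap (-0.32, SE 0.06, adjusted p = 0.0352). Cox16, another factor of cytochrome oxidase assembly, was at 30.6 and 38.4 FPKM in the KO-labelled females, 27.9 and 34.0 FPKM in the KO-labelled males, 24.0, 22.2 and 22.8 FPKM in the WT-labelled females, and 25.7 and 22.0 FPKM in the WT-labelled males, without overlap and higher (0.48, SE 0.10, adjusted p = 0.0493). The span of Cox16 overlaps 5 other annotated genes, 4 of them on the same strand, so its reads may be shared. Across the 21 other settings Cox14 had adjusted p-values of 0.0169 to 0.235, Uqcc1 of 0.0201 to 0.286 and Cox16 of 0.0394 to 0.166. Each of the 3 calls was lost without either KO-labelled female, any WT-labelled female or WT-labelled male 2, that of Uqcc1 also without KO-labelled male 1 and that of Cox16 also without KO-labelled male 2. The targeted gene Ghrh lies at chr2:157329497-157347506 of GRCm38, and the mice are of mixed background. Whether any of the 3 genes lies close to it was not examined, and an effect of linked strain alleles was not tested.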

How the data were processed

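Poly A+ RNA of whole brown adipose tissue was sequenced by the study as paired reads with TruSeq libraries. The deposited tables hold 1 FPKM value per gene symbol and library, made by the authors from reads aligned to mm10; the submitters' notes name bcl2fastq 1.8.4, TopHat2 2.0.11 and Bowtie. The program that computed FPKM, and whether strand was used, are not given in the sources used here. Read totals are unknown, so no counting error was computed, and the 9 libraries set the precision.

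Genes above 0 in all 9 libraries (14675) were transformed to log2 FPKM without a pseudocount and fitted in limma 3.58.1 (R 4.3.3) with 1 mean per genotype and sex, a mean-variance trend and Benjamini-Hochberg adjustment over all genes, called at an adjusted p under 0.05. Of these genes, 76 held a value above 0 but under 0.001 FPKM in a library, none of them a subunit. Paralog ratios were compared by exact permutation over libraries (scipy 1.17.1), and figures drawn with matplotlib 3.10.9. The fits were tested on simulated data. Alternatives were pseudocounts of 0.1 and 1, filters on low values, other scalings (median, quantile, TPM), fits without trend, robust or additive, and leaving out each library. TPM without Mir6236 (a microRNA locus holding 2.30% to 10.3% of a library's FPKM) and leaving out the genes with values under 0.001, and the muscle ratios without each library, were added after the data were seen.

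The members and lists were chosen with earlier results of these data known. Values in every library are given for the 2 members of each complex with the lowest p, those called, the paralog pairs, Atpif1 and Ghrh; other genes named were picked after their values were seen. Marker lists were read in each comparison. For genotype averaged over the sexes, calls were 3 of 18 skeletal muscle markers (higher), 4 of 8 fibroblast, 2 of 8 macrophage, 1 of 9 white adipocyte and 1 of 6 erythroid markers (lower), and none of 12 brown adipocyte, 8 endothelial and 10 lymphocyte markers tested.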

Additional observations from a re-analysis of the deposited data

Results flagged for a closer look

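In 58 groups of values examined for a sample far from the rest, 2 were flagged. That is no more than chance gives, about 1 in 20. Both were WT-labelled male 2. For Cyc1, its log2 FPKM was 9.64 and the other 4 WT-labelled libraries lay between 9.77 and 9.78, a gap of 0.917 of the whole range. For Uqcr10, its log2 FPKM was 9.33 against 9.50 to 9.57, a gap of 0.713 of the range. The same library had the lowest muscle sum and the lowest Cox6a2.

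In 3 subunits each KO-labelled female lay above all WT-labelled females and each KO-labelled male below all WT-labelled males. They were Sdhb, Cyc1 and Atp5b, and 2.58% of all genes showed this pattern. Sdhb was at 839 and 883 FPKM in KO-labelled females against 774 to 804 FPKM in WT-labelled females, and at 662 and 679 FPKM in KO-labelled males against 705 and 771 FPKM in WT-labelled males. Tested as the genotype by sex interaction in limma, none passed: Sdhb at -0.25 (adjusted p = 0.709), Cyc1 at -0.20 (adjusted p = 0.732) and Atp5b at -0.20 (adjusted p = 0.741).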

How the results depend on the processing

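Of 649 recomputed values over 35 results, 584 were rated the same. For single genes and ratios this meant the same sign and the same side of the threshold. For counts it meant only a similar count. For medians of a complex it meant a move within the SD between libraries of a group, so a median near 0 could change sign. The 2 subunits called for genotype averaged over the sexes became 1 with a pseudocount of 0.1 and with median centring (Atp5g1), and 0 without a filter on low values, without the variance trend and in the additive model. Leaving out 1 library gave 0 to 2. In males the count of 0 became 0 to 1 on leaving out 1 library (Atp5g1 without KO-labelled male 2, Cox6a2 without WT-labelled male 1), in fits that called 1293 (8.81%) and 334 (2.28%) of 14675 genes. The linear model of the study called 1 subunit, 2 with the sexes weighted equally, 0 with Benjamini-Hochberg adjustment and 0 to 1 on leaving out 1 library. Over all genes, 529 calls became 170 without a filter, 34 without the trend, 222 with median centring and 1062 as TPM, and fell to 8 without KO-labelled female 1 and 9 without WT-labelled female 1. They rose to 1105 without KO-labelled male 2 (620 higher, 485 lower) and 816 without WT-labelled male 1 (359 higher, 457 lower).

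As TPM, the medians of complexes II and III moved from -0.02 to -0.088 and -0.091, and that of complex V from 0.0090 to -0.059 (9 and 2 of 16 positive). Median centring gave 0.039 for complex II (4 of 4 positive) and 0.036 for complex III (6 of 9 positive). Signs turned for differences near 0. Sdha went to -0.017 (quantile) and -0.0055 (TPM), Sdhd to 0.024 and Cox4i1 to 0.018 (median centring), Cox4i2 to -0.010 (TPM), and Cox8b to -0.031 (quantile), -0.048 (TPM) and -0.0011 (TPM without Mir6236). On leaving out 1 library, Sdhd ran from -0.086 to 0.017, Cox4i2 from -0.068 to 0.16, Cox8b from -0.037 to 0.078, Atpif1 from -0.36 to 0.055 and the ratio of Cox4i2 to Cox4i1 from -0.11 to 0.21. The cause was not tested.

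No paired analysis was possible because the labels give each mouse its own number. Groups of 2 or 3 mice and unknown read totals limit every value.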
